A study of Saccharomyces cerevisiae with 167 samples.

Results

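The arrays carried 13029 probes of the budding yeast genome, and 949 of them were named neither after a nuclear protein-coding ORF nor after the intergenic region beside such an ORF. These 949 feature probes were chosen by a rule on names that uses no measured value. The rule was set with earlier results of these data known. By the prefix of their names they fell into 16 classes. The ribosomal DNA (rDNA) had 13 gene probes and 4 spacer probes, the telomeres 10, the centromeres 16 and the intergenic regions beside centromeres 16. There were 42 probes of tRNA genes, 250 of intergenic regions named after a tRNA gene, 44 of small nuclear or nucleolar RNA genes and 44 of regions beside RNA genes. The transposon-related classes held 26 probes of Ty elements, 141 of long terminal repeats (LTRs) and 253 of regions beside either. Introns of nuclear genes had 21 probes, and mitochondrial DNA had 55 ORF, 8 intron and 6 RNA gene probes. Of the 949, 947 had values on enough arrays to be tested in every comparison, and the other 2 were small nucleolar RNA genes.

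The study set histone H4, acetylated H4 and the chromatin remodeller Snf2 beside RNA in yeast cells put through heat shock or stationary phase. Chromatin was cross-linked with formaldehyde, sheared and immunoprecipitated (IP). H4 was taken through a Myc tag with an anti-Myc antibody and acetylated H4 with an anti-acetyl-H4 antibody, although an anti-Myc antibody stands in the labels of those acetylated H4 arrays that carry both log- and stationary-phase chromatin. Which antibody was used there is open, so the values of those arrays may not measure acetylated H4. Each array gave a log2 ratio of its Cy5 to its Cy3 sample, set here so that the median of all probes on the array was 0. A change shared by the whole genome, such as more H4 or less RNA per cell, therefore leaves no trace in these values. Heat shock at 39 °C was compared with 30 °C, and stationary phase with log phase, on 3 arrays each for H4 and for acetylated H4, with both states on the same array (direct comparisons). The same 4 states were also set against sonicated genomic DNA, 3 arrays per state for H4 and for acetylated H4, and acetylated H4 was set against H4 on 3 arrays per state. Snf2, also Myc-tagged, was set against input DNA of the tagged cells on 3 arrays at 30 °C and 5 after heat shock, and no untagged control was analysed here. The labels do not say whether untagged H4 genes remained in the H4-Myc cells. Time courses after heat shock covered codes T0 to T900, which carry no unit in the chromatin labels, with 40 arrays of H4 and 39 of acetylated H4 from wild-type and snf2 deletion cells. Total RNA was compared on 3 arrays for heat shock and 3 for stationary phase. Nothing says that the numbered sets came from separate cultures, so p-values measure the spread between these arrays, which may be technical.

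In budding yeast the rDNA is a tandem array of repeats, each with a large transcription unit read by RNA polymerase I, which yields the RDN37 precursor of the RDN18, RDN58 and RDN25 RNAs, and a separate RDN5 gene read by RNA polymerase III. The repeats that are being transcribed carry few nucleosomes, and the spacers are subject to silencing by Sir2, a histone deacetylase. Telomere-proximal chromatin is bound by the Sir proteins and is poor in H4 acetylation, centromeres carry a nucleosome with the H3 variant Cse4, and mitochondrial DNA is packaged without histones. Probes with one gene name (RDN37-1, RDN37-1A, RDN37-1B and RDN37-1C) share a target, and repeated sequences such as rDNA, Ty elements, LTRs and tRNA genes can hybridise DNA from many copies. Members of such a class are therefore not independent measurements.

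The H4 level against genomic DNA was low at every rDNA probe. In unstressed cells at 30 °C, 425 of the 947 feature probes lay below the median probe and 41 above it, where 16.5% and 12% of all probes did (limma, adjusted p under 0.05). All 13 rDNA gene probes and all 4 spacers were among the lower ones, with class medians of -2.25 and -1.37. The median over all feature probes was -0.23 and that over all probes on the array 0.00. RDN37-1A read -2.65, -2.11 and -2.99 on the 3 arrays. All 3 values lay far below 0, and the mean of -2.58 ± 0.45 (SD, n = 3) put H4 there 5.99-fold below the median probe (SE 0.15, adjusted p = 1.6e-05). RDN5-1, the gene read by RNA polymerase III, was the least depleted rDNA gene with -1.56, -1.29 and -1.62, a mean of -1.49 ± 0.17 (SD, n = 3) and a 2.81-fold lower level. RDN18-1 (mean -2.02), RDN25-1A (-2.33) and RDN58-1 (-2.26) lay between these on the log2 scale.

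In the log-phase cells of the stationary-phase series, 68 feature probes were lower and 0 higher, where 2.32% and 0.0844% of all probes were. The 13 rDNA genes (median -2.95) and 4 spacers (median -1.93) were again all lower. RDN37-1B was the lowest with -3.77, -3.62 and -2.82, a mean of -3.40 ± 0.51 (SD, n = 3) and a 10.6-fold lower level (adjusted p = 0.0061). Without log-phase array 2 none of the 17 rDNA probes passed the test, and without array 1 12 genes and 2 spacers did. The 4 spacers were not alike. At 30 °C iRDN37-1 (-1.94, -1.49 and -2.10) and iRDN5-1 (-1.96, -1.47 and -2.37) were nearly as low as the genes. The spacer iRDN5-2 read only -0.55, -0.51 and -0.46, and iRDN5-3 read -0.91, -0.56 and -1.19. The ranges of the 2 pairs did not overlap. In the annotation used for names the RDN5-1 gene lies between rDNA units, whereas RDN5-3 lies beside ASP3-2, a gene for the cell-wall asparaginase. The word spacer here names a class set by the prefix of the probe name. Whether iRDN5-2 and iRDN5-3 lie within the rDNA repeats is not given.

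**Figure D1:**
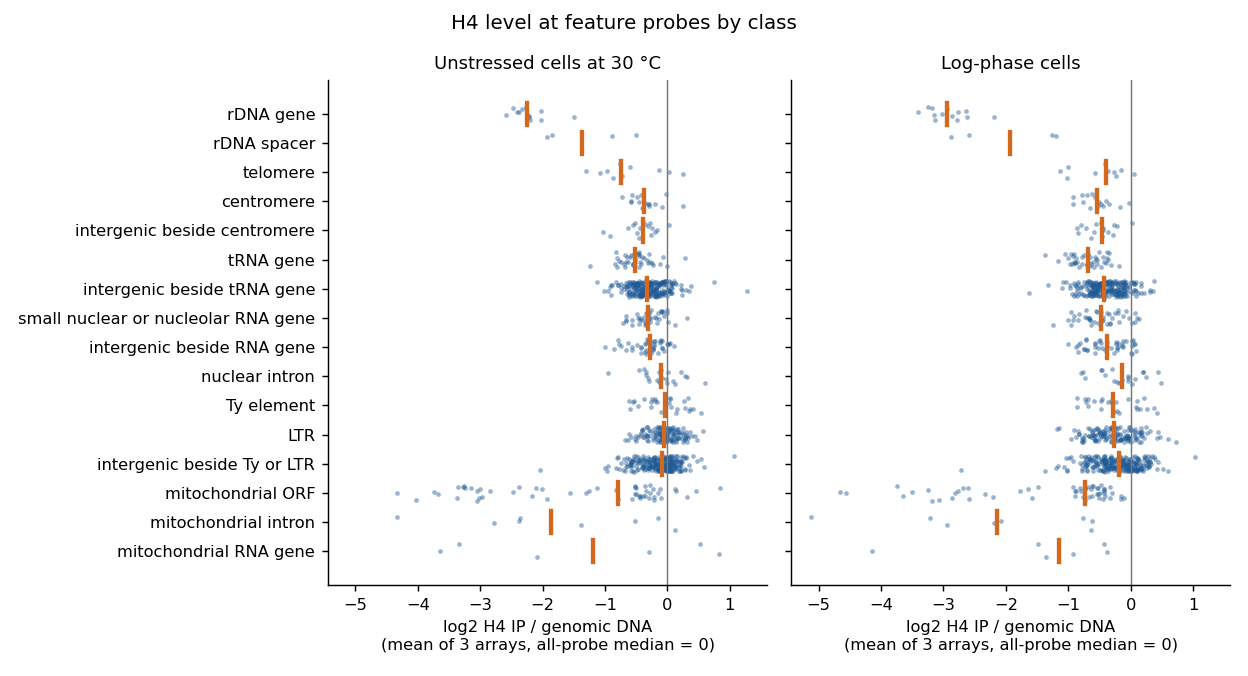
Each point is 1 feature probe, plotted by its mean log2 ratio of H4 IP to genomic DNA over 3 arrays at 30 °C (left) and 3 in log phase (right), and the orange bar is the class median. The rDNA genes (medians -2.25 and -2.95) form a tight low group, while mitochondrial probes spread from below -4 to above 0 at 30 °C and most other classes lie just under 0.

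Acetylation relative to H4 was lower than at the median probe over most of the rDNA genes and over all telomere probes. It split the probes of the rDNA spacer class into 2 pairs. On the arrays of acetylated H4 against H4 at 30 °C, 291 feature probes were higher and 210 lower, where 28.6% and 30.3% of all probes were. Of the rDNA genes 11 of 13 were lower (median -0.74) and in log phase 10 of 13 (median -0.74), where 138 feature probes were higher and 154 lower and the shares of all probes were 20.1% and 19%. RDN25-1A gave -1.19, -1.73 and -1.56 at 30 °C (mean -1.49 ± 0.28 SD, n = 3, adjusted p = 1.6e-05) and -1.08, -1.22 and -1.51 in log phase. RDN5-1 gave 0.04, -0.30 and 0.19 at 30 °C, values on both sides of 0 that did not pass the test.

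The spacers iRDN37-1 and iRDN5-1 were as poor in acetylation as the lowest gene probes. At 30 °C iRDN37-1 read -1.37, -1.60 and -1.43 (mean -1.47, 2.77-fold lower) and iRDN5-1 read -1.18, -1.66 and -1.73 (mean -1.52, 2.87-fold lower). The spacers iRDN5-2 and iRDN5-3 lay on the other side of 0. The values of iRDN5-2 were 0.99, 0.46 and 0.83, a 1.69-fold higher level (SE 0.11, adjusted p = 0.00038). Those of iRDN5-3 were 0.77, 0.52 and 0.62, a 1.55-fold higher level (adjusted p = 0.0003). Every array put the first pair below 0 and the second pair above it, in log phase too (means of -1.41 and -1.75 against 0.65 and 0.60). Without log-phase array 1 the 2 higher calls in log phase were lost, while at 30 °C all 4 calls stood without any array.

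**Figure D2:**
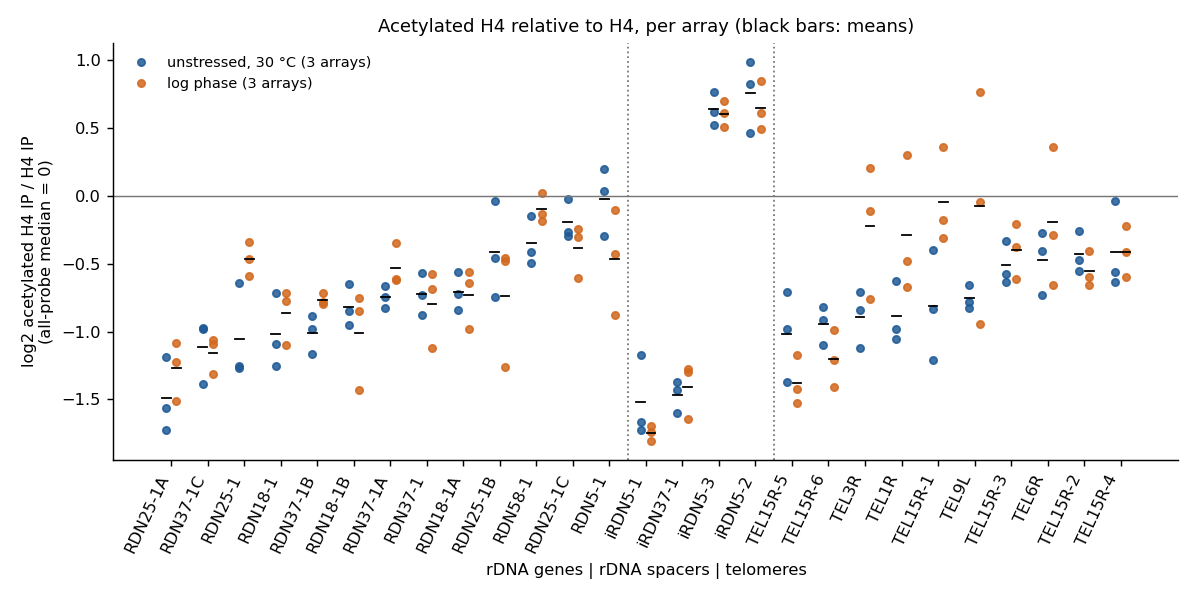
Points are the log2 ratios of acetylated H4 IP to H4 IP on each of 3 arrays at 30 °C (blue) and 3 in log phase (orange) for the rDNA genes, rDNA spacers and telomere probes, and black bars are means. iRDN5-1 and iRDN37-1 lie below -1 on all 6 arrays and iRDN5-2 and iRDN5-3 above 0.4, and 5 telomere probes have log-phase arrays on both sides of 0 where all their 30 °C arrays are below it.

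In stationary phase H4 was recovered in larger amounts at the rDNA, relative to the median probe, on all direct arrays. The feature probes gave 64 higher and 9 lower calls in the direct H4 comparison, where 2.33% and 0.637% of all probes were called. All 17 rDNA probes were higher, the genes by a median of 2.22 and the spacers by 1.97. RDN37-1C gave 3.04, 2.49 and 3.22, the highest gene mean at 2.91 ± 0.38 (SD, n = 3, 7.54-fold, adjusted p = 0.007). RDN5-1 gave the lowest with 1.12, 1.76 and 2.11 (mean 1.67, 3.17-fold). Among the spacers iRDN37-1 gave 2.65, 2.39 and 3.20, above iRDN5-2 with 1.24, 1.13 and 1.19 and iRDN5-3 with 0.78, 1.08 and 0.91, so the spacers with the least H4 in log phase had the largest differences. Without array 1 none of the 17 passed the test, while 11 genes and 2 spacers did without array 2 and all 17 did without array 3.

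The separate arrays against genomic DNA show where the 2 states stood. RDN37-1C read -3.06, -3.54 and -2.82 in log phase and -1.35, -1.07 and 0.37 in stationary phase. The difference of 2.46 (SE 0.45) had an adjusted p of 0.18. RDN58-1 read -3.34, -3.49 and -2.90 and then -1.26, -1.03 and -0.08, also a difference of 2.46. RDN5-1 read -2.33, -2.30 and -1.93 and then -0.96, -0.89 and 0.03, a difference of 1.58. In all 17 rDNA probes the log-phase and stationary arrays did not overlap, as was the case for 19.5% of all probes. No probe of the array passed the test in this comparison (0% called, 1469 probes with an unadjusted p under 0.05), and the medians were 1.96 for the genes and 1.46 for the spacers. All 13 gene means stayed below the median probe in stationary phase, between -1.42 and -0.60. The mitochondrial intron probe IntQ0185A also rose without overlap, from -5.43, -5.20 and -4.73 to -3.64, -3.55 and -3.66. The groups of the mitochondrial probes 15S_rRNA1 and 15S_rRNA2 overlapped.

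**Figure D3:**
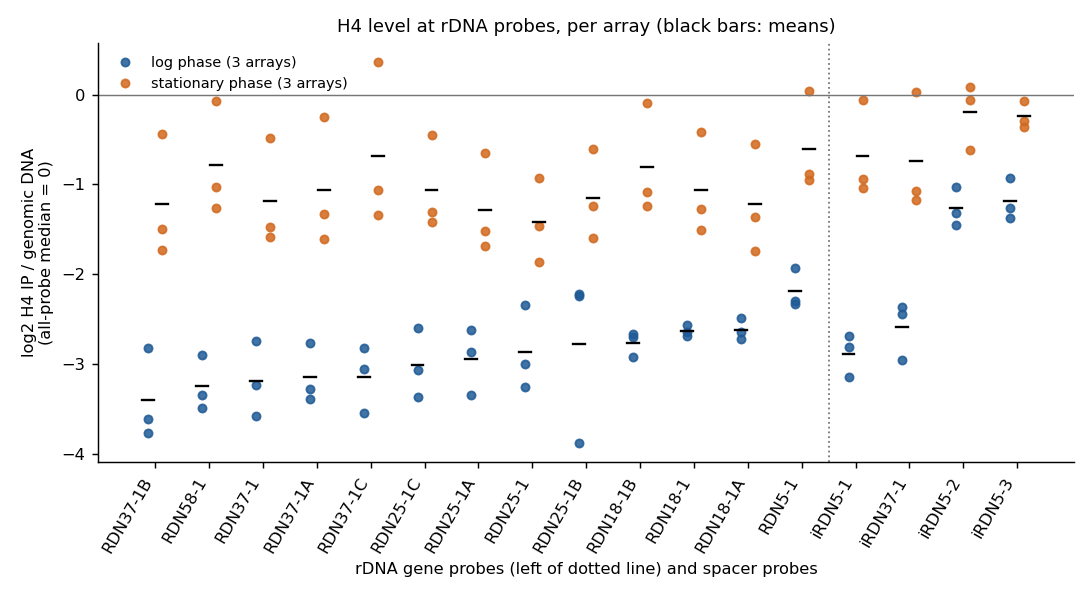
Points are log2 ratios of H4 IP to genomic DNA on 3 log-phase arrays (blue) and 3 stationary-phase arrays (orange) for 13 rDNA gene and 4 spacer probes, with means as black bars. The stationary arrays lie above the log-phase arrays for every probe, and 1 stationary array is above the other 2 at all gene probes.

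Acetylated H4 followed the same course at the rDNA genes in the direct stationary comparison, with 1 exception. An anti-Myc antibody stands in the labels of those arrays. On them 134 feature probes were higher and 149 lower, where 8.51% and 12.1% of all probes were. Of the rDNA genes 12 of 13 were higher (median 2.31), as were all 4 spacers. RDN25-1C was the highest with 3.02, 2.16 and 3.17 (mean 2.78, 6.88-fold, adjusted p = 0.013). RDN58-1 read -1.14, -2.27 and 1.79, values that do not agree in sign, and did not pass. Without array 3 the count was 8 and without array 1 it was 11. Among the 12, RDN5-1 had the smallest mean with 1.31, 0.76 and 0.58, a call that no set of 2 arrays gave. On the arrays of acetylated H4 against H4, the feature probes gave 14 higher and 29 lower calls between stationary and log phase, where 2.28% and 2.63% of all probes were called. RDN5-1 was the one rDNA probe among them, going from -0.43, -0.88 and -0.10 in log phase to -1.35, -1.79 and -1.99 in stationary phase. The groups did not overlap, and the difference of -1.24 (SE 0.25) had an adjusted p of 0.045, a call that was lost on leaving out any single array. Against genomic DNA, acetylated H4 had class medians of 1.73 for the genes and 1.27 for the spacers and again no call (0% of all probes, 2342 with an unadjusted p under 0.05). The contrast within the spacers remained in stationary phase, where iRDN5-1 averaged -1.91 against H4 and iRDN5-2 and iRDN5-3 1.07 and 0.91.

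Total RNA from the rDNA genes was lower in stationary phase. The arrays gave 106 higher and 72 lower feature probes, where 15.2% and 14.6% of all probes were called, and 11 of the 13 rDNA genes were lower (median -1.07). The largest differences were at probes of the precursor gene. RDN37-1 gave -1.97, -1.64 and -2.85 (mean -2.15 ± 0.63 SD, n = 3, 4.44-fold lower, adjusted p = 0.00037), and RDN37-1B gave -2.87, -1.07 and -3.12 (5.11-fold lower). RDN25-1, a mature large-subunit probe, gave -1.18, -1.13 and -1.83. RDN5-1 (0.00, -0.24 and -0.85) and RDN18-1B (-0.61, -0.09 and -1.45) did not pass, and without array 1 the count was 7. The spacers differed in sign, with iRDN37-1 at -0.90 and iRDN5-1 at -0.59 lower and iRDN5-2 (0.89, 0.25 and 0.86) higher. These 3 calls were lost without array 1. Among 24 ORF probes of the RNA polymerase I machinery, 9 were lower and 1 was higher in stationary-phase RNA (median -0.34). The lowest were RPB8, a subunit shared by the nuclear RNA polymerases, at -1.30, and the polymerase I subunits RPA12 at -1.27 and RPA34 at -1.16. The H4 level on these 24 ORFs gave 0 calls in the same transition. Of 15 genes of rDNA silencing and stability, 3 were lower in RNA, with NET1, the nucleolar anchor of Cdc14, at -0.96.

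After heat shock the rDNA gave few calls in chromatin and a mixed picture in RNA. The direct H4 arrays gave 88 higher and 149 lower feature probes, where 10% and 11.5% of all probes were called. None of the 13 rDNA genes was called (median -0.35), and the medians of the class on the 3 arrays were -0.32, -0.93 and 0.16. Array 3 stood apart from the other two, and without it all 13 genes were lower. The direct arrays of acetylated H4 gave 94 higher and 138 lower feature probes, where 12.4% and 14.1% of all probes were called. RDN5-1 was the rDNA gene called, with -0.75, -0.87 and -0.49 (mean -0.70, 1.63-fold lower, adjusted p = 0.0037), without array 3 4 genes were lower, and without array 2 3 genes were higher and 1 lower. Against genomic DNA none of the 17 rDNA probes was called for H4 (0.307% of all probes called). For acetylated H4 1 of them was, among 8 higher and 10 lower feature probes, where 1.72% and 3.22% of all probes were called. Acetylated H4 set against H4 gave no call among the feature probes between 39 and 30 °C (0.0614% of all probes called, 1982 with an unadjusted p under 0.05). In total RNA after heat shock, 108 feature probes were higher and 61 lower, where 15.2% and 14.7% of all probes were called. RDN25-1C (0.80, 1.14 and 0.55), RDN18-1 (0.64, 0.89 and 0.15) and RDN37-1C (0.27, 1.01 and 0.29) were higher. RDN37-1A was lower with -0.79, -0.53 and -1.19, as were RDN37-1, RDN37-1B and RDN58-1, so probes named after the same precursor gene went in both directions. Without array 3 none of the 4 lower calls stood, and without array 1 1 of the 3 higher ones did. The fit of the heat-shock RNA arrays gave every probe the same spread, so its adjusted p-values depend on the size of the mean alone. Of the 24 RNA polymerase I genes 10 were lower in heat-shock RNA, led by RPA49 at -1.80, RPA12 at -1.61 and RPA34 at -1.40.

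Snf2, the ATPase of the SWI/SNF remodelling complex, lay above the median probe at most rDNA probes after heat shock, while the change from 30 °C was not called at any of the 13 rDNA genes. At 30 °C 98 feature probes lay above the median probe and 0 below it, where 5.14% and 0.0307% of all probes did. Of the rDNA genes RDN5-1 (1.00, 0.86 and 0.97) and RDN58-1 (1.47, 0.85 and 0.63) were called. After heat shock 297 feature probes lay above and 20 below, where 14.4% and 9.44% of all probes did, and 12 of 13 rDNA genes (median 0.88) and all 4 spacers (median 0.99) were above. Leaving out single arrays after heat shock left 11 or 12 genes and all 4 spacers. RDN37-1A read 0.96, 1.16, 1.77, 0.61 and 1.17 (mean 1.13 ± 0.42 SD, n = 5, 2.19-fold, adjusted p = 0.0032). RDN5-1 was the exception after heat shock with 0.89, 0.27, 0.28, -0.34 and 0.53. Array 4 was the lowest of the 5 at most of these probes. Mitochondrial RNA gene probes, from DNA without histones, also had a Snf2 signal above the median probe. Their class medians were 1.28, 1.67 and 0.60 at 30 °C and 0.98, 0.85, 0.27, 0.50 and 0.32 after heat shock. How much of the signal at rDNA and telomere probes is bound Snf2 was not tested, as no untagged control was analysed.

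The change of Snf2 itself, tested between the 3 arrays at 30 °C and the 5 after heat shock, gave 1 call among the feature probes, where 0.0614% of all probes were called. That probe was iRDN5-3, placed in the spacer class by its name alone. It read 0.23, -0.59 and -0.18 at 30 °C and 1.29, 0.95, 1.35, 1.34 and 1.38 after heat shock. The groups did not overlap, and the difference of 1.44 (2.71-fold, SE 0.20) had an adjusted p of 0.045. The call was lost with the set number as a block (0 calls among the feature probes), without centring, and on leaving out any array other than array 3 at 30 °C. The other spacers had differences of 0.48 to 0.97 and the rDNA genes a median of 0.66, none of them called. RDN37-1A went from 0.14, -0.56 and 0.03 to the 5 values above without overlap, by 1.26 (adjusted p = 0.097), as 10.4% of all probes did not overlap either. Of the 4 calls that Snf2 gave at telomeres and the 2 at rDNA genes at 30 °C, none stood without array 1.

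**Figure D4:**
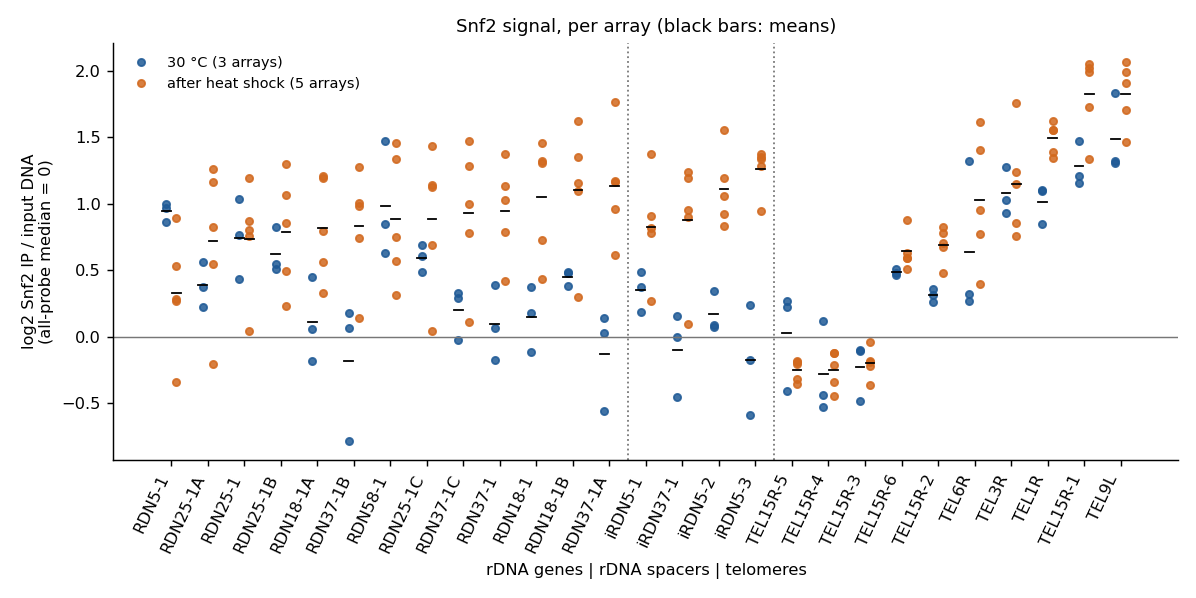
Points are log2 ratios of Snf2 IP to input DNA on 3 arrays at 30 °C (blue) and 5 after heat shock (orange) for the rDNA genes, rDNA spacers and telomere probes, with means as black bars. The spacers iRDN5-2 and iRDN5-3 separate fully between the groups, and TEL9L, TEL15R-1 and TEL1R are high in both.

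The telomere probes combined low acetylation with, at most of them, a low H4 level, and some carried a high Snf2 signal. At 30 °C 7 of 10 were below the median probe in H4 (median -0.74), where 16.5% of all probes were. TEL6R was the lowest with -1.41, -1.16 and -1.33 (mean -1.30 ± 0.13 SD, n = 3, 2.46-fold lower, adjusted p = 3.1e-05). TEL1R averaged -1.08 and TEL9L -0.97. Within the 6 probes of the right end of chromosome XV, TEL15R-3, TEL15R-4 and TEL15R-5 were not called, with means of -0.13, 0.03 and 0.25. In log phase 2 of 10 were lower, where 2.32% of all probes were, and none on leaving out any single array or without centring. All 10 were lower in acetylation per H4 at 30 °C (median -0.79), where 30.3% of all probes were. On leaving out an array 9 or 10 were lower. TEL15R-5, which had an H4 level near the median probe, gave the lowest acetylation with -0.71, -1.37 and -0.98, and TEL9L gave -0.78, -0.83 and -0.66. In log phase TEL15R-2 to TEL15R-6 were lower (TEL15R-5 at -1.42, -1.18 and -1.53), and without array 1 there were 2 such calls. The other 5 had arrays on both sides of 0 there, such as TEL9L with -0.05, -0.94 and 0.76.

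Snf2 lay above the median probe at 4 of 10 telomere probes at 30 °C and at 7 of 10 after heat shock, and the 7 stood without any array. Of all probes 5.14% and 14.4% lay above it in these states. TEL9L read 1.31, 1.32 and 1.83 at 30 °C and 1.47, 2.07, 1.91, 1.70 and 1.99 after heat shock. Its mean of 1.83 ± 0.24 (SD, n = 5) was 3.55-fold above the median probe (adjusted p = 0.00012). TEL15R-1 averaged 1.28 and then 1.82, and TEL1R 1.02 and then 1.49. The groups of TEL9L overlapped, and no telomere probe was called for the change itself (median difference 0.25). TEL15R-3, TEL15R-4 and TEL15R-5 were not enriched in either state, with TEL15R-4 at -0.34, -0.13, -0.12, -0.45 and -0.21 after heat shock.

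In stationary phase 5 telomere probes were lower on the direct arrays of acetylated H4 (median over the 10 -0.37), where 12.1% of all probes were. The labels of those arrays name an anti-Myc antibody. The direct H4 arrays called none of the 10. Against genomic DNA none of the 10 was called for acetylated H4 and the median difference was 0.23, so the medians of both designs differed in sign. The 5 were TEL9L (-1.38, -1.72 and -1.45), TEL3R (-1.56, -1.31 and -1.31), TEL15R-1 (-1.66, -1.24 and -1.22), TEL1R (-0.48, -1.11 and -1.59) and TEL6R (-1.05, -1.32 and -0.53). Every direct array showed the decrease, which was 2.86-fold at TEL9L (adjusted p = 0.013), and 3 or 4 of the 5 calls stood on leaving out an array. Set against H4, TEL15R-1 read -0.18, -0.31 and 0.36 in log phase and -1.72, -1.57 and -1.66 in stationary phase, a difference of -1.61 (SE 0.20, adjusted p = 0.033). The call was lost without log-phase array 1 or 3 or stationary array 1 or 2. TEL1R, TEL3R and TEL9L differed by -1.28, -1.54 and -1.43 without overlap and had adjusted p-values of 0.055, 0.061 and 0.073. Groups without overlap were seen at 36.7% of all probes in that comparison. Heat shock moved few telomere probes. TEL6R lost H4 on the direct arrays with -0.73, -0.58 and -0.58 (1.55-fold lower, adjusted p = 0.0016), TEL1R averaged -0.32, and TEL15R-5 was higher at 0.26. Without array 1 the last 2 of these calls were lost. None of the 10 was called for acetylated H4 on those arrays (7 were higher without array 2), or for RNA in either transition. Of 16 genes of telomeric silencing and capping, 1 was higher and 2 were lower in heat-shock RNA, and 2 higher and 0 lower in stationary-phase RNA. Of all probes 15.2% were called higher and 14.7% lower in the first and 15.2% and 14.6% in the second.

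Over the time courses H4 at telomere probes was higher in the snf2 deletion than in wild type. The mean difference at matched times was above 0 at all 10 (median 0.28), and 3 passed the test, where 7 feature probes in all were higher and 2 lower and the shares of all probes were 2.12% and 0.23%. TEL15R-1 differed by 0.52 (SE 0.11, adjusted p = 0.0044), with 0.48, 0.42 and 0.71 in sets 1, 2 and 3. TEL1R differed by 0.48 (adjusted p = 0.0022), with 0.67, 0.43 and 0.37. TEL9L differed by 0.48 (adjusted p = 0.0016), with 0.40, 0.44 and 0.58. These were the 3 telomere probes with the highest Snf2 signal after heat shock. TEL1R was higher in the deletion at all matched times of every set, and the other two at all but 1 time of set 3. The telomere medians in the 3 sets were 0.29, 0.23 and 0.37, against 0.01 for all probes in each. Without set 2 none of the 10 was called and without set 1 4 were. With the set number as a block 6 were called higher. The main fit held no set term, and the deletion had no H4 array of set 1 at T60. Acetylated H4 gave no telomere call between the strains (TEL1R at -0.07). All H4 arrays of the time courses used wild-type genomic DNA as reference, for both strains.

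**Figure D5:**
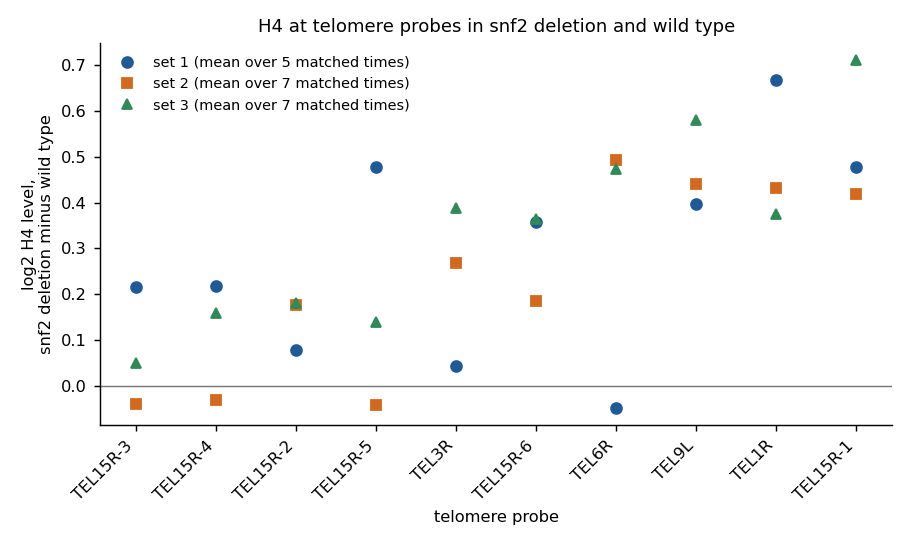
Points are the differences in log2 H4 level between snf2 deletion and wild-type cells at each telomere probe, as means over the matched times of set 1 (circles), set 2 (squares) and set 3 (triangles). TEL9L, TEL1R and TEL15R-1 lie at 0.37 or above in all sets, while TEL6R, TEL15R-3, TEL15R-4 and TEL15R-5 have a set just below 0.

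At tRNA genes, which RNA polymerase III reads and which lack a regular nucleosome over the gene body, the H4 level was below the median probe. At 30 °C 34 of 42 were lower (median -0.52), where 16.5% of all probes were. On leaving out an array 29 to 36 of the 42 were lower. tL(GAG)G was the lowest with -1.28, -1.09 and -1.34 (mean -1.24 ± 0.13 SD, n = 3, 2.36-fold lower, adjusted p = 4.4e-05). Of the 250 regions beside tRNA genes 141 were lower and 4 higher (median -0.32), where 16.5% and 12% of all probes were. They ran from itR(CCG)L at -1.13 to itL(CAA)G1 at 1.28 (1.02, 1.51 and 1.31). In log phase 6 tRNA genes and 11 neighbouring regions were lower, where 2.32% of all probes were, and none on leaving out any single array. Acetylation per H4 at 30 °C was higher at 12 of 42 tRNA genes and lower at 0, where 28.6% and 30.3% of all probes were called. Snf2 after heat shock was above the median probe at 28 of 42 tRNA genes (median 0.52) and at 104 of 250 neighbouring regions. Of all probes 14.4% were above it. tI(UAU)L read 0.42, 0.62, 1.32, 0.97 and 0.95 (1.81-fold) and itR(CCG)L 0.80, 0.86, 1.08, 1.17 and 0.87 (1.94-fold). The 28 became 13 without array 3 and 15 without array 4, and the 104 became 52, 24 and 35 without array 2, 3 or 4.

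Between states the tRNA genes changed little, but single regions beside them changed as much as any probe of the class. On the direct heat-shock arrays itP(UGG)A lost H4 with -1.29, -1.28 and -0.97 (2.27-fold lower, adjusted p = 0.00031), and its RNA signal rose by 2.70, 3.02 and 2.56 (6.77-fold). itV(CAC)H lost nearly as much H4 with -0.90, -1.04 and -1.01 (1.98-fold lower), but its RNA values of -0.26, -0.15 and -0.28 did not pass the test. In stationary phase itE(UUC)C gained H4 with 2.10, 1.72 and 1.50 (3.42-fold, adjusted p = 0.011; no call of the class stood without array 1). itR(ACG)J had the largest RNA rise of the class with 3.34, 3.09 and 3.30 (9.45-fold). Among the genes themselves tI(AAU)P2 had less RNA signal in both stresses, with -1.52, -1.18 and -1.60 after heat shock and -1.45, -1.24 and -1.53 in stationary phase. The protein-coding genes next to these regions are not named here, since the tRNA names could not be matched to the annotation.

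Small nuclear and nucleolar RNA genes, whose products guide splicing and the modification of ribosomal RNA, had a median H4 level of -0.31 at 30 °C. There 22 of 42 were lower, and 12 without array 1, where 16.5% of all probes were lower. LSR1, the yeast U2 RNA, gave -0.71, -0.60 and -0.68, and snR128 gave -0.63, -0.65 and -0.69. SNR6, the U6 RNA gene, which RNA polymerase III reads, had Snf2 values of 1.39, 1.89 and 0.91 at 30 °C (2.63-fold, adjusted p = 0.016) and of 1.14, 1.22, 0.48, 0.39 and -0.38 after heat shock. The second group spread across 0 and did not pass (adjusted p = 0.019 without array 5), and the first did not without array 1. In stationary phase SNR13 gained H4 with 2.45, 1.20 and 1.53 (3.31-fold), followed by snR3 at 1.44 and SNR34 at 0.98. None of these 3 stood without array 1. On the direct arrays of acetylated H4, with the anti-Myc label, SNR69 (mean -1.81, not called without array 3) and SNR6 (-1.28) were lower. In RNA, snR128 fell in stationary phase with -1.42, -1.49 and -2.12 (3.20-fold lower, adjusted p = 0.00039), while LSR1 rose after heat shock with 0.97, 1.04 and 0.70.

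Of the probes beside RNA genes, 10 are named after an RNA gene that lies inside or next to a ribosomal protein gene in the annotation. Of these 10 probes 3 were higher and 0 lower in H4 on the direct heat-shock arrays, where 10% and 11.5% of all probes were called. In RNA 7 were lower after heat shock and 5 in stationary phase, where 14.7% and 14.6% of all probes were. None of the 10 was higher in either, where 15.2% of all probes were in each. SNR44 lies within RPS22B, SNR59 within RPL7B, and SNR65 between SYP1 and RPS14A. The name of a probe does not give the side of the RNA gene on which it lies. iSNR44 gained H4 on the direct heat-shock arrays with 0.56, 0.55 and 0.51 (1.45-fold, adjusted p = 0.0021), iSNR59 with 0.54, 0.54 and 0.59 and iSNR65 with 0.34, 0.43 and 0.46. Their RNA signals fell by 1.52, 2.04 and 2.08 on the log2 scale after heat shock, and by 2.99, 2.15 and 2.51 in stationary phase. iSNR67, whose RNA gene lies between the mitochondrial ribosomal protein gene RML2 and SNR53, had the largest RNA change of all 947 feature probes after heat shock with 3.34, 4.14 and 3.64 (13.1-fold), and the opposite sign in stationary phase with -1.02, -1.94 and -1.72. Its H4 values after heat shock, -0.11, 0.14 and 0.13, lay on both sides of 0. iSNR47, whose RNA gene lies between YDR042C and NRG1, which encodes a repressor of glucose-repressed genes, rose in RNA in both stresses, by 1.64 and 2.03.

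Of 21 probes in introns of nuclear genes 9 were higher and 1 lower in H4 on the direct heat-shock arrays, where 10% and 11.5% of all probes were called. All 9 lie in ribosomal protein genes whose ORF probes were also higher. Of the 11 introns in such genes the other 2, in RPS27B and RPS19B, averaged 0.13 and 0.20 and were not called. IntYPL143W, in RPL33A, gave 0.63, 0.61 and 0.54 (1.51-fold, adjusted p = 0.0015), IntYPL081W, in RPS9A, gave 0.61, 0.63 and 0.47, and IntYGL103W, in RPL28, gave 0.46, 0.60 and 0.52. The hosts' ORF probes rose by 0.29, 0.30 and 1.00. Without array 1 6 of the 9 calls stood. IntYGL103W was the 1 feature probe called in H4 against genomic DNA after heat shock, with -0.88, -1.18 and -0.80 at 30 °C and -0.22, 0.00 and -0.05 at 39 °C. The call was lost on leaving out any array other than array 1 at 39 °C. The RNA signal at the 9 host ORFs fell by 1.48 to 2.80, and 3 of the 9 introns fell, IntYGL103W by 0.68, IntYPL081W by 0.68 and IntYDR064W (RPS13) by 0.65. The values at the other 6 introns lay between -0.44 and 0.20 and were not called. Without array 3 none of these 3 falls passed the test. IntYDR381W, in the mRNA export gene YRA1, rose by 0.82 (adjusted p = 0.051 without array 1) while its host ORF fell by 0.60. The difference between intron and host was not tested.

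Centromere probes were depleted of H4 at 30 °C in 10 of 16 cases (median -0.38), where 16.5% of all probes were lower. The count went from 3 on leaving out array 1 to 11 without array 2. CEN14 read -0.73, -0.78 and -0.66. After heat shock 8 of 16 were lower on the direct H4 arrays (median -0.44), where 11.5% of all probes were. The array medians were -0.66, -0.66 and -0.05, so that the count was 15 without array 3 and 4 without array 2. Against genomic DNA the median was 0.14 with 0 calls, and the 2 designs thus differed in sign. Acetylated H4 was lower at 9 of 16 on the direct heat-shock arrays, where 14.1% of all probes were. On the direct stationary arrays, with the anti-Myc label, 11 of 16 were lower (median -0.95, 3 without array 3), where 12.1% of all probes were. CEN4 gave -2.80, -1.40 and -2.20 there (not called without array 3), and CEN16 gave -1.70, -1.96 and -1.43 (3.24-fold lower). On the direct H4 arrays of stationary phase 6 of 16 regions beside centromeres were higher, where 2.33% of all probes were. They were led by iCEN6 with 1.77, 1.22 and 0.79, and none of the 6 stood without array 1. The Snf2 signal at centromeres moved with that of mitochondrial ORFs from array to array. At 30 °C the centromere medians were 1.19, 1.55 and 0.23 and those of mitochondrial ORFs 0.76, 1.43 and 0.23. After heat shock they were 0.99, 0.83, 0.21, 0.32 and 0.54 against 0.74, 0.85, 0.03, -0.02 and 0.15. The part of such array differences in the 4 centromere calls at 30 °C and the 9 after heat shock was not tested, and none stood without array 1 at 30 °C or array 2 after heat shock. Of all probes 5.14% lay above the median probe at 30 °C and 14.4% after heat shock.

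Ty elements, retrotransposons present in many copies, lay low in acetylation per H4. Per H4 17 of 26 were lower and 5 higher at 30 °C (median -0.49), where 30.3% and 28.6% of all probes were. In log phase 12 were lower and 4 higher, where 19% and 20.1% of all probes were. After heat shock Snf2 was below the median probe at 9 of 26 and above it at 0 (median -0.25), with YPLCTy4-1B at -0.72, -0.65, -0.74, -0.55 and -0.64 (1.58-fold lower, adjusted p = 0.003). Of all probes 9.44% were below and 14.4% above after heat shock. The 9 calls became 5, 1 and 2 without array 2, 3 or 4. At 30 °C 0 of 26 were below, where only 0.0307% of all probes were, so the 2 counts cannot be compared. The change between the states was called at no Ty probe. In stationary phase 12 of 26 were lower on the direct arrays of acetylated H4, with the anti-Myc label, where 12.1% of all probes were. The median was -0.51, and the 12 became 5 without array 2 and 4 without array 3. YHRCTy1-1D gave -1.84, -1.29 and -1.08. RNA from YILWTy3-1D, a probe of a Ty3 element, rose in stationary phase with 2.35, 1.86 and 1.81 (4.02-fold). Of 141 LTR probes 29 were higher and 1 lower in stationary-phase RNA, where 15.2% and 14.6% of all probes were called, and the 29 became 9 without array 1 and 15 without array 3. After heat shock 22 were higher and 3 lower, where 15.2% and 14.7% of all probes were called, and the 22 became 11 without array 1 and 12 without array 3. The largest was YGLCdelta5 in stationary phase with 2.44, 2.25 and 2.94 (5.82-fold).

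Among the regions beside Ty elements or LTRs, 3 are named after the LTR YLRWdelta6. At 30 °C the H4 level of iYLRWdelta6-B was -2.21, -1.62 and -2.32 (4.14-fold lower), the lowest of all regions beside Ty elements or LTRs. On the direct stationary arrays it read 2.31, 2.06 and 2.54 (4.94-fold higher, adjusted p = 0.007), the highest of its class, with an adjusted p of 0.075 without array 1. iYLRWdelta6-0 had a Snf2 signal after heat shock of 1.07, 1.41, 1.59, 0.87 and 1.29 (2.37-fold). The annotation used for names holds no LTRs, so where these regions lie relative to the rDNA is not given here.

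Mitochondrial probes spread more widely in H4 level than any nuclear class. At 30 °C 39 of 55 ORF probes, 6 of 8 introns and 3 of 6 RNA gene probes were below the median probe, and 2 ORFs and 1 RNA gene probe were above it. Of all probes 16.5% were below and 12% above. IntQ0185A was the lowest feature probe with -4.46, -4.30 and -4.25 (20.2-fold lower, adjusted p = 5.2e-08), and Q0085, an ATP synthase subunit gene, was next with -4.29, -4.54 and -4.15. 21S_rRNA2 stood at the other end with 1.11, 0.35 and 1.00, and Q0350 with 0.82, 0.69 and 1.03. The 2 probes of the small ribosomal RNA gene agreed at 30 °C, 15S_rRNA1 with -3.78, -3.33 and -3.85 and 15S_rRNA2 with -3.59, -3.33 and -3.08. They parted in stationary phase. On the direct H4 arrays 15S_rRNA1 read 2.35, 2.53 and 2.43 (5.42-fold higher, adjusted p = 0.0042), and 15S_rRNA2 read 0.02, 0.20 and 0.24. The first had an adjusted p of 0.064 without array 1. On the direct arrays of acetylated H4, with the anti-Myc label, 15S_rRNA1 read 2.97, 3.28 and 1.77. 15S_rRNA2 read -1.72, -1.85 and -0.51 there and was not called without array 1 or 2. Against genomic DNA 15S_rRNA1 went from -4.56, -3.75 and -4.11 in log phase to -3.30, -3.40 and -3.77 in stationary phase, a difference of 0.65 that was not called.

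Between the strains, acetylated H4 differed at 43 feature probes over the time course, 39 higher in the snf2 deletion and 4 lower, where 8.73% and 3.23% of all probes were called. The share of feature probes called higher was thus below that of all probes. The 39 were 16 of 250 probes beside tRNA genes, 16 of 253 beside Ty elements or LTRs, 4 of 44 beside RNA genes and 1 of 16 beside centromeres. An LTR and a Ty element made up the rest. itG(GCC)P2 had the largest difference at 0.86 (SE 0.12, adjusted p = 1.9e-06), with 0.40, 1.14 and 0.79 in sets 1, 2 and 3. itA(AGC)D differed by 0.74, with 0.30, 1.09 and 0.64, and itF(GAA)M by 0.69. Without set 2 the count of 43 was 11, and without set 1 it was 85. The deletion had no array of set 1 at T900. iSNR47 differed by 0.64 (adjusted p = 2.1e-07), with 0.56, 0.76 and 0.62, and iCEN5 by 0.55. All 39 had the same sign in sets 2 and 3 and 38 in set 1. The 39 were chosen by their mean over these same sets, so the agreement in sign adds no separate support. The labels give genomic DNA of the deletion strain as the reference for the deletion in sets 2 and 3 and wild-type DNA in set 1, and the medians of the 39 were 0.46, 0.40 and 0.28 in sets 2, 3 and 1. For H4, itA(AGC)D (0.44) and iYCRWomega3 (0.46, SE 0.06, adjusted p = 2.1e-05) were among the 7 probes higher in the deletion, the latter by 0.53, 0.35 and 0.54 in the 3 sets. No feature probe was called for a change over time in either strain for H4 (0.346% of all probes in wild type and 0.023% in the deletion, with 416 and 251 at an unadjusted p under 0.05). The same held for acetylated H4 (0.499% in each strain, with 859 and 1033 at an unadjusted p under 0.05). T0 had 2 arrays per strain, from sets 2 and 3, while most later codes also had an array of set 1. The differences from T0 thus mix time with set, as the fit held no set term. The F-test for H4 in wild type also did not call HSP82. That ORF probe differed from T0 by -0.60 to -1.45 (adjusted p = 0.68), so the lack of calls does not show that H4 was unchanged. Across the 20 wild-type H4 arrays the rDNA gene median stayed between -2.71 and -1.19, and across the 20 of the deletion between -2.54 and -0.81. At the rDNA genes the strains differed by a median of 0.18 in H4 and 0.12 in acetylated H4, with 0 calls. The difference between the strains in the course over time was not tested.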

How the data were processed

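The authors deposited log2 ratios of Cy5 to Cy3 for 13029 probes on 167 two-colour arrays, and the treated, immunoprecipitated or mutant sample was in Cy5, per the labels. Dyes were not swapped in the labels, so a dye effect cannot be told apart from a ratio. The base was read from the values: 100% of the ratios below 0.5 were whole thousandths in base 2 (tolerance 0.02) and 4.8% in base 10. No label or header records the image analysis or the normalization. The values carry no spot intensities, so saturated or dim spots could not be marked, and the number of arrays limits the precision. Array medians lay between -0.14 and 0.26 before centring.

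Each array was centred on its median over all probes. Groups were compared, or tested against 0, with limma 3.58.1 in R 4.3.3 (lmFit and eBayes), and p-values were adjusted by Benjamini-Hochberg over all probes with values on at least 2 arrays of each group, with a threshold of 0.05. A change over time was an F-test over the differences from T0, and the strain difference was averaged over matched times. The fits were tested on simulated data. Means are given with the SD over arrays, and SE is that of the limma estimate on the log2 scale. The 2 H4 arrays repeated at T900 in set 2 of the deletion were averaged and counted as 1.

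The members, the classes and the 5 lists of pathway genes were chosen with earlier results of these data known. Any probe of a class of at most 15 could be named. In larger classes the 5 largest rises and the 5 largest falls per comparison that passed the test and ran the same way on every array (or had groups without overlap) were named, with the highest and lowest member, U RNAs and mitochondrial RNA probes. The H4 value of iSNR67 and the RNA value of itV(CAC)H in heat shock were added after their values were seen. Gene names and neighbours came from RefSeq's annotation of yeast, with no coordinates, since the files name no build. No sequences were used here. For Snf2 the deviations of same-numbered arrays at 30 °C and after heat shock correlated with r between 0.106 and 0.192 over 3 pairs. The set number was taken to pair them, from the data alone, although arrays of different numbers reached 0.507. No main fit held the set number as a block. The alternatives were no centring, scaling of arrays to 1 spread, complete probes only, the set number as a block and leaving out each array. The poly(A) RNA arrays of the time course were not analysed here.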

Additional observations from a re-analysis of the deposited data

Results flagged for a closer look

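For the Snf2 signal after heat shock, 28 results over the 5 arrays (class medians and named probes) were tested for a single array lying apart from the others, and 1 was marked. At iRDN5-3, in the rDNA spacer class by its name, the array of set 2 read 0.95, below the other 4, which lay between 1.29 and 1.38. That value was still above all 3 arrays at 30 °C, of which the highest was 0.23. Chance marks about 1 in 20 such results.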

How the results depend on the processing

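Of the counts of feature probes called, those that moved by over 1.5 times outside the left-out arrays were these. Scaling the arrays to 1 spread gave 36 in place of 1 for H4 in heat shock against genomic DNA, 0 in place of 43 for acetylated H4 against H4 between stationary and log phase, 191 in place of 98 for Snf2 at 30 °C and 2 in place of 1 for the change of Snf2. Without centring those counts were 22 for acetylated H4 against H4, 11 for Snf2 at 30 °C and 0 for the change of Snf2. With the set number as a block, acetylated H4 against H4 between stationary and log phase gave 96, the strain difference 22 in place of 9 for H4 and 78 in place of 43 for acetylated H4. The time courses with that block gave 1 in place of 0 for H4 in each strain and 2 in place of 0 for acetylated H4 in the deletion. The replicate block gave 0 in place of 1 for the change of Snf2, the comparison whose arrays pair, where iRDN5-3 went to 1.37 with an adjusted p of 0.29, and it changed no other call there. Elsewhere the set number was not taken to pair the arrays. In the time courses, deviations of same-numbered arrays of different groups correlated with a median r of 0.381 for H4 and 0.25 for acetylated H4. Across different numbers the medians were -0.222 and -0.111, and the lowest same-numbered values were -0.153 and -0.48. Outside the time courses, the block lost among the named probes the call of IntYGL103W in H4 (adjusted p = 0.099). It gave one to TEL1R in acetylated H4 against H4 (adjusted p = 0.035).

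Leaving out arrays moved most counts. In heat shock the direct counts ranged from 88 (without array 2) to 365 (without array 3) for H4 and from 128 (without array 1) to 333 for acetylated H4, and against genomic DNA from 0 to 48 (without array 1 at 39 °C) and from 3 (without array 1 or 2 at 30 °C) to 19. In stationary phase they ranged from 0 (without array 1) to 70 for H4, from 117 (without array 3) to 162 for acetylated H4, and from 0 (without log-phase array 1 or 3 or stationary array 1 or 2) to 72 for their ratio. The levels ranged from 309 (without array 1) to 467 for H4 at 30 °C, from 0 (without array 2) to 35 in log phase, and from 135 (without array 1) to 395 for the ratio in log phase. Snf2 ranged from 0 (without array 1) to 376 (without array 3) at 30 °C, from 124 (without array 3) to 321 after heat shock and from 0 to 4 for its change. Leaving out a set gave 1 (without set 2) to 9 for the strain difference in H4, 11 (without set 2) to 85 (without set 1) in acetylated H4, and 0 to 2 and 0 to 1 for the time courses of acetylated H4. RNA ranged from 93 (without array 1) to 190 for heat shock and from 84 (without array 1) to 174 for stationary phase. No named probe that passed the test changed sign under any of these. The number of arrays, 3 in most groups, limits the smaller differences.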

Other observations

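The mitochondrial probe 15S_rRNA1 differed between the sets of the H4 time courses. Against genomic DNA it lay between -3.12 and -2.02 on the 11 arrays of set 1 and between -2.90 and -1.86 on the 15 arrays of set 2, but between 0.16 and 4.36 on the 14 arrays of set 3, so set 3 did not overlap the other sets. Both strains and all time codes are pooled in these ranges. The intron probe IntQ0185A, the other mitochondrial probe with a large rise in stationary phase, stayed between -4.53 and -1.39 in all 3 sets. The cause was not tested.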
